A study of Mus musculus with 6 samples.

Results

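The nuclear-encoded respiratory chain genes are the subunits of complexes I to V whose genes lie in the cell nucleus. They were taken by gene name (Nduf, Sdh, Uqcr, Cox and Atp5 names) among the array probes that carry an NM_ accession, without use of any measured value. This gave 118 of the 61307 probes on the array and 89 of the 19523 gene names with such a probe. Complex I had 42 genes, complex II 4, complex III 7, complex IV 19 and complex V 17. Of the 89 genes, 82 encode structural subunits. The other 7 fit the names but are not structural subunits: the assembly factors Ndufaf1 to Ndufaf4, Cox4nb (now Emc8), Atp5s (now Dmac2l) and Atp5sl (now Dmac2). Ndufa4 is counted in complex I by its name, although its protein is now assigned to complex IV.

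Gene expression was measured in NIH3T3 cells, an established line of mouse embryonic fibroblasts, on 6 one-colour Agilent arrays. GFP cells carried a retroviral vector expressing GFP alone and served as the control. LT7 (long) and ST7 (small) cells carried the same type of vector expressing SIRT7 fused to GFP, and both were picked by shape from confluent SIRT7 cultures and expanded through single-cell cloning. The labels describe the GFP cells as cloned too, and how many clones each group holds is not given in the sources used here. Every group had 2 replicates, taken from different passages, so p-values measure the spread between passages and not between clones. Transduced cells had been selected with Geneticin, and all were grown in the same serum-containing medium.

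The respiratory chain passes electrons from NADH (through complex I) and succinate (through complex II) to ubiquinone, on to cytochrome c through complex III, and to oxygen through complex IV. The proton gradient formed by complexes I, III and IV drives ATP synthesis by complex V. Most subunits are required in every cell and are encoded in the nucleus, while a small core set is encoded in mitochondrial DNA. No probe on this array carried the name of a mitochondrially encoded subunit. Several complex IV subunits exist as paired isoforms, of which 1 is used in most tissues and another mainly in heart and skeletal muscle, lung or testis. SIRT7 is known to deacetylate GABPβ1, a partner of the GABP factor that binds promoters of many of these genes. The comparison with GFP asks how these genes differed in the cells labelled as overexpressing SIRT7.

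The arrays labelled ST7 stood apart from the other 4, and the labels were checked first. On these arrays 26.4% and 25.5% of all probes were well above background, against 47.4% to 57.5% on the other arrays. The Sirt7 probe used gave signals of 3125 and 2480 in GFP, 3633 and 2782 in LT7 but 2.85 and 3.28 on the arrays labelled ST7, at background level. LT7 and GFP did not differ in it by the test (0.28, SE 0.23, limma adjusted p = 0.53), and whether the probe reads the vector's transcript was not tested. All 13 fibroblast markers were detected in GFP and in LT7, with summed signals of 368200 to 415900. On the arrays labelled ST7 5 of 13 were, with summed signals of 15110 and 16640 of which Vim alone gave 14610 and 16190, and Col3a1, Pdgfra, Pdgfrb, Lox and Thy1 were at background. Of 12 epithelial markers 4 were well above background on both of these arrays, beside 2 in GFP and 1 in LT7. Their summed signals were 2229 and 2046 against 126 to 220 elsewhere. Krt18 alone gave 1881 and 1755 of these sums. Dsp had 3.40 and 3.26 in GFP, at background, and 178 and 104 on the arrays labelled ST7. Epcam had 5.38 and 3.03 in GFP, at background, and 86.7 and 94.0 there, and Cldn3 38.7 and 32.3, then 44.5 and 39.2. Krt8 had 123 and 62.2 in GFP and 15.3 and 5.82 there, and Cdh1 was not above background on any array. Muscle markers were above background on both arrays for 5 of 9 genes in GFP and 4 of 9 in LT7 and in ST7, with summed signals of 1150 to 4199, and macrophage markers for 2, 2 and 0 of 5, with sums of 17.6 to 362. Whether these arrays measured mouse RNA of the cells they are labelled for was not tested. Every ST7 level and fold rests on that, and the values are given for the arrays so labelled. These arrays also enter the error of the LT7 against GFP tests, which is pooled over all 6 arrays.

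Probe sequences show what was measured, and those of Ndufs6 and Ndufa12 are printed because overlapping probes of these genes gave different results on the arrays labelled ST7. Ndufs6 encodes a zinc-binding accessory subunit of complex I, and Ndufa12 an accessory subunit of its matrix arm. The 60-base probes are given as in the scanner files, which list them as unmapped, so no genome position is printed. Capitals mark the bases that the printed probes of a gene share, 33 in Ndufs6 and 40 in Ndufa12.
Ndufs6 probe 1: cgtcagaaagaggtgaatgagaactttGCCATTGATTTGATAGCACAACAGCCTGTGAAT
Ndufs6 probe 2: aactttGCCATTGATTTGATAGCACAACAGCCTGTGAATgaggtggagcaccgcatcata
Ndufs6 probe 3: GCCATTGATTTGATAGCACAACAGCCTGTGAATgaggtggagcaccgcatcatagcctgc
Ndufa12 probe 1: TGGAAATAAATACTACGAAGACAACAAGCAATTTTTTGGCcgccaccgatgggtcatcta
Ndufa12 probe 2: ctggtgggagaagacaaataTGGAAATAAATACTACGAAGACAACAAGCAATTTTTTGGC

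Each probe reads 1 stretch of an mRNA, and 24 of the 89 genes had more than 1 probe. For counts over genes, the probe with the highest mean log2 signal over the 6 arrays was used. Changes are log2 differences after each array was scaled to the 75th percentile of 11084 probes, those detected on all 6. Detected here means well above background by the scanner's own flag. Signals quoted per array are the processed signals before scaling. The bulk RNA cannot tell fewer cells with a transcript from less transcript in each cell.

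In GFP cells the chain was expressed almost in full. Of the 89 genes, 85 were well above background on both GFP arrays, including all 42 of complex I, all 4 of complex II, all 7 of complex III and all 17 of complex V. The 4 genes that were not above background on any GFP array all belonged to complex IV and are tissue isoforms: Cox4i2 (lung), Cox7b2 and Cox8c (testis) and Cox8b (muscle). Their partners Cox4i1, Cox7b and Cox8a were detected on both GFP arrays, with signals of 42270 and 44360, 10780 and 11220, and 64620 and 61750. Cox8a, Cox6a1 and Atp5g3 were saturated on both GFP arrays, so their levels there are lower limits.

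LT7 gave the same count. Of the 89 genes, 85 were well above background on both LT7 arrays. Ndufa4l2, a paralogue of Ndufa4 known to be induced by low oxygen, was above background on both GFP arrays (20.7 and 17.1) and on neither LT7 array (8.09 and 14.6). Cox7b2 was the other gene to cross the background line, in the opposite direction.

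**Figure D1:**
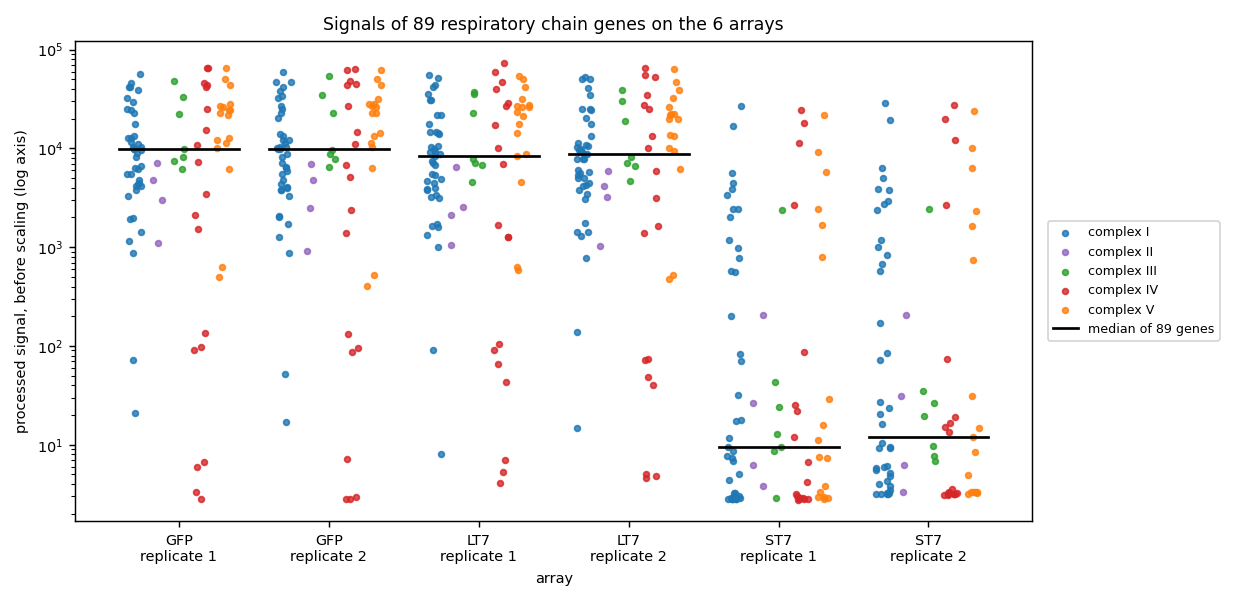
Processed signal before scaling (log axis) of the 89 genes, 1 probe per gene, on each of the 6 arrays, with points coloured by complex and a black line at the median. The median lies between 8416 and 9870 on the GFP and LT7 arrays and at 9.51 and 12.0 on the arrays labelled ST7.

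Few of these genes could be told apart between LT7 and GFP cells, whose Sirt7 signals did not differ by the test either. One test passed: Cox7b2, a complex IV subunit isoform known from testis, was higher in LT7, and no gene was lower. That is 1 of 89 genes called higher and 0 called lower, where over all 19523 genes with an NM_ probe 0.0615% were called higher and 0.143% lower (limma, adjusted p under 0.05 over all 61307 probes). At an unadjusted p under 0.05 there were 7 of the 89 genes (7.87%), including Cox8b and Cox8c, which were below background in both groups. The share was 24.2% of all genes, many of them below background, and 5.93% of the 11084 probes detected on all arrays. The median log2 change of the 89 genes was -0.04, beside 0.16 for all genes.

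Cox7b2 (NM_030052) had signals of 6.67 and 7.17 on the GFP arrays, 65.4 and 48.8 on the LT7 arrays, and 2.85 and 3.15 on the arrays labelled ST7. Both LT7 values lay above both GFP values, and it was well above background on the LT7 arrays alone. The log2 change was 3.12 (SE 0.22, limma adjusted p = 0.042). With GFP below background, this amounts to at least 5.39-fold under the main scaling only. Over the alternatives in processing the fitted change lay between 0.91 and 3.30, and was 0.91 with normexp background correction and with spike-in scaling. With only the GFP and LT7 arrays in the fit, Cox7b2 had the same change of 3.12 and did not pass. Its widely used partner Cox7b did not pass (-0.04, limma adjusted p = 0.93). The Cox7b2 call was near the threshold: over the alternatives in processing its adjusted p lay between 0.015 and 0.63, and it passed in 9 of 18 settings, this one included. Without LT7 replicate 1, the array of the second scan, its adjusted p was 0.050 and still passed before rounding. Without GFP replicate 1 it was 0.28 and without GFP replicate 2 it was 0.18.

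For the other genes the changes were small against the error. Of the 84 genes detected on all 4 GFP and LT7 arrays, 77 (91.7%) changed by less than 0.5 on the log2 scale, and 0 of the 84 passed the test. The same share over all 11215 such genes was 80.4%, and 5 of them passed. The median half-width of the 95% interval was 0.52 for the 89 genes, so log2 changes below about that size could not be told from 0 in most of them. This error is pooled over all 6 arrays, so it includes the spread between the arrays labelled ST7 and is not that of GFP and LT7 alone. Uqcrfs1 had 6199 and 6519 in GFP and 4526 and 4676 in LT7. It had 2.92 and 6.85 on the arrays labelled ST7, and an SE of 0.44 for LT7 against GFP.

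Among complex I genes, which take electrons from NADH, 16 of 42 had positive and 26 negative log2 changes, with a median of -0.06. Ndufaf3, an assembly factor, was highest, with signals of 72.2 and 52.5 in GFP against 91.8 and 139 in LT7. The groups did not overlap, but the change of 0.96 did not pass (SE 0.29, limma adjusted p = 0.10). Ndufa11, a membrane-arm subunit, was next at 0.39 (SE 0.56), with 1157 and 1257 in GFP against 1716 and 1301 in LT7. Its second probe gave 0.37. At the low end was Ndufb7 (-0.38, SE 0.20), an accessory subunit with signals of 17680 and 20390 in GFP against 14030 and 13480 in LT7. None of these passed. Ndufa4l2 had no level in LT7 and its signal in GFP lay under the floor for a limit, so it has no fold. Ndufv3 and Ndufv1, of the NADH-binding module, are named after their values were seen: 3 probes of Ndufv3 gave 0.37 to 0.50 and a pair of Ndufv1 probes gave -0.36 and -0.48, none of which passed.

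Complex II, which oxidises succinate, ranged from Sdha, the flavoprotein, at 0.12 (SE 0.20) to Sdhb, the iron-sulfur subunit, at -0.47 (SE 0.40). Sdhb had signals of 4761 and 4806 in GFP against 2557 and 4146 in LT7. In complex III the range ran from Uqcrh, the hinge protein, at 0.06 (SE 0.19) to Uqcrfs1, the Rieske iron-sulfur protein, at -0.38 (SE 0.44). Of the 7 complex III genes 6 had negative changes, with a median of -0.18. No gene of either complex reached an unadjusted p under 0.05.

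Complex IV, cytochrome c oxidase, held 5 of the 7 genes at an unadjusted p under 0.05 (limma). That is 26.3% of its 19 genes, beside 24.2% of all genes, many of them below background. Besides Cox7b2 the 5 genes included Cox6a2, Cox5a, Cox8b and Cox8c. Cox6a2, the heart and muscle isoform, had signals of 96.9 and 87.4 in GFP against 43.0 and 40.0 in LT7, without overlap. Its change of -1.06 (SE 0.24) had a limma adjusted p of 0.074 and did not pass. Its common partner Cox6a1 was at 0.20 (SE 0.21), saturated in both groups. Cox5a, a subunit used in all tissues, had 43640 and 44850 in GFP against 28780 and 27570 in LT7, a change of -0.57 (SE 0.17, limma adjusted p = 0.11). Cox7c was lower still in log2 change (-0.77) but its arrays scattered more, with 3459 and 5138 in GFP against 1697 and 3183 in LT7 (SE 0.41). Cox8b and Cox8c were below background in both groups and have no fold.

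The remaining isoform pairs of complex IV did not pass either. Cox4i1 was at -0.01, Cox6b1 at -0.05 and the testis isoform Cox6b2 at -0.12. Cox7a1, the muscle isoform, was at -0.52 (signals 136 and 132 in GFP, 106 and 73.2 in LT7), while Cox7a2 was at 0.12 and Cox7a2l, which helps complexes III and IV associate, at -0.05. Cox8a was at -0.09. Cox4i2 was below background in both groups.

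In complex V, the ATP synthase, 9 of 17 genes had positive and 8 negative changes, with a median of 0.01. Atp5e, the epsilon subunit of the central stalk, was highest at 0.52 (SE 0.20, limma adjusted p = 0.17), with 11350 and 11380 in GFP against 17480 and 13580 in LT7. Atp5s, which is not a structural subunit, was at 0.37 on 1 probe and -0.21 on the other. The lowest were Atp5d, the delta subunit of the same stalk, at -0.36 (SE 0.19) and Atp5k, subunit e of the membrane part, at -0.15 (SE 0.22). Atp5g1, Atp5g2 and Atp5g3, which encode 1 identical mature c-ring protein, were at 0.13, 0.16 and -0.03.

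The 7 genes that are not structural subunits had a median of 0.05 in LT7, with 0 called and 1 at an unadjusted p under 0.05 (limma). Ndufaf1 was at 0.11, Ndufaf2 at 0.05 and Ndufaf4 at -0.30. Cox4nb, a subunit of the endoplasmic reticulum membrane protein complex, gave -0.55 and -0.58 on its pair of probes, without passing.

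**Figure D2:**
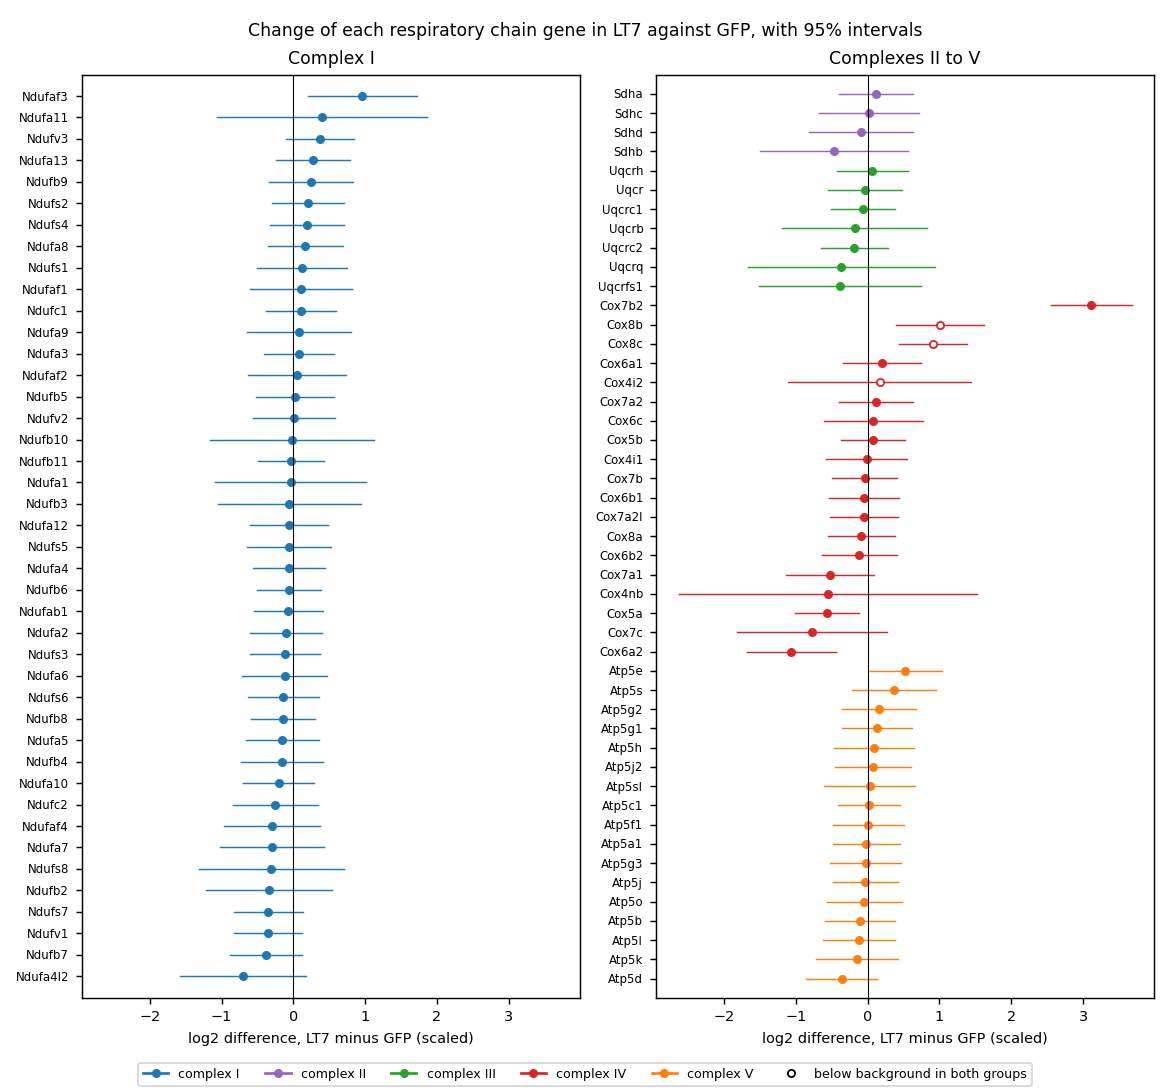
Log2 difference between LT7 and GFP for each gene after scaling, with the 95% interval of the limma fit, complex I on the left and complexes II to V on the right; open circles mark genes below background in both groups. Cox7b2 at 3.12 stands apart, and most other intervals include 0.

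Among genes that act with the chain, from fixed lists, none passed in LT7. Of 20 measured genes for cytochrome c, cytochrome c1 and assembly factors, 0 passed, with a median of -0.04. Of 16 tricarboxylic acid cycle genes 0 passed (median 0.02), and of 17 regulators of mitochondrial biogenesis 0 passed (median -0.15). Ppargc1a, a coactivator of mitochondrial biogenesis, had 535 and 461 in GFP against 267 and 219 in LT7, a log2 change of -0.95 with a limma adjusted p of 0.074. Gabpa was at 0.19 and Gabpb1, the partner that SIRT7 deacetylates, at -0.57, both without passing.

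Promoter sequence was available for 73 of the 89 genes, as 300-base windows around the start site from RefSeq (GRCm38.p6). CCGGAAG, letters bound by GABP and other ETS factors, was found on either strand in 17 of 73 (23.3%), beside 9.93% of 27025 genes. The NRF1 palindrome was found on either strand in 6 of 73 (8.22%), beside 1.07% of all. The 17 genes with CCGGAAG had a median log2 change in LT7 of -0.07, from -0.47 to 0.52, and the 56 without it a median of -0.04. A match is a description of letters in the window and not a binding site.

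On the arrays labelled ST7 nearly every gene of the chain differed from GFP. Of the 89 genes 23 were called higher and 62 lower, where over all genes 46.4% were called higher and 40.4% lower. The whole comparison is this wide, with 50849 of 61307 probes called, and the count of members is read against that. The median log2 change of the 89 genes was -6.44, beside 0.77 over all genes. These medians are not alike, since the median signal on GFP replicate 1 was 9870 for the 89 genes and 117.5 for all genes. A probe that ends at background has a change that follows its GFP signal. Scaling decides part of the split: without scaling 2 genes were called higher and 77 lower, and with the 75th percentile over all probes 30 higher and 55 lower. The 11084 scaling probes themselves had a median of 1.31 in this comparison, and changes are best read against that value. Over all probes 66.6% of the calls were higher in ST7, against 9.31% without scaling and 78.1% with the percentile over all probes. Of the 36 genes detected on all 6 arrays, 12 lay above and 24 below it (33.3% above), beside 42.3% above for all 4264 such genes.

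By the probe used, most genes fell into 2 kinds on these arrays. That probe has the highest mean over all 6 arrays, a choice that favours a probe detected on the arrays labelled ST7. Over all 118 member probes 43 (36.4%) were well above background on both of these arrays and 69 on neither. Of the 89 genes, 37 (41.6%) were well above background on both arrays labelled ST7 and 47 on neither. The 47 included 21 of complex I, 2 of complex II, 3 of complex III, 12 of complex IV and 9 of complex V. Of the 62 genes called lower, 43 were not above background on either array, so their changes are limits. Of the 23 called higher, 19 were above background on both, and the other 4 (Cox4i2, Cox7b2, Cox8b and Cox8c) were below background in GFP too and have no fold. Setting the genes without a level to their limit gives a median of -4.76 in place of -6.44. Among all 113 member probes well above background on both GFP arrays 38.1% were also above it on both arrays labelled ST7, beside 33.5% of 18112 NM_ probes. For probes with a mean GFP signal over 1000, 53.1% of 96 member probes were above background on neither, beside 55.3% of 6472 NM_ probes. With a signal over 10000 the shares were 56.4% of 55 and 44.6% of 1076.

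Subunits that every respiring cell is known to use were among those at background. The genes named here had the lowest fitted change of their complex, but for genes at background only a limit holds, so their order was not measured. The limits hold for the main scaling only. With the percentile over all probes the scaling probes had a median of 3.25 in place of 1.31, which makes these limits smaller. Over the alternatives in processing the fitted change of Atp5a1 lay between -13.8 and -7.20. In complex V these were Atp5a1 and Atp5c1, the alpha and gamma subunits at the catalytic centre and rotor. Atp5a1 had 43570 and 43450 in GFP, 41760 and 39090 in LT7 but 2.82 and 3.22 on the arrays labelled ST7, at least 586-fold lower (limma adjusted p = 1.1e-05). Atp5c1 had 50560 and 51030 in GFP, 50080 and 46650 in LT7 but 3.34 and 3.31 there, at least 684-fold lower. For both genes the groups did not overlap, and GFP and LT7 lay close together.

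In complex IV they were Cox5a and Cox6c. Cox5a had 2.90 and 3.13 on the arrays labelled ST7, at least 596-fold below GFP. Cox6c, a small accessory subunit, had 45760 and 48580 in GFP, 39920 and 55170 in LT7 but 4.20 and 3.17 there, at least 635-fold below GFP. In complex I they were Ndufb11 (38820 and 38010 in GFP, 2.83 and 3.19 there, at least 518-fold) and Ndufb9 (42150 and 41980, then 4.41 and 3.28, at least 567-fold), both accessory subunits of the membrane arm. The limit of Ndufa13, at least 625-fold, was beyond both. In complex III it was Uqcr (now Uqcr11), a small accessory subunit, with 22290 and 22910 in GFP and 9.39 and 7.62 there, at least 304-fold lower, while Uqcrq, detected on 1 of the arrays labelled ST7, changed by -8.77. In complex II it was Sdhd, a membrane anchor, at least 94.1-fold lower.

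Other genes of the same complexes kept signals near those in GFP. Ndufa8, an accessory subunit in the intermembrane space, had 11730 and 12160 in GFP and 16840 and 19260 on the arrays labelled ST7. Its second probe went the other way before scaling, with 7333 and 6967 in GFP and 4412 and 4917 there. Ndufb8 had 24630 and 25130 in GFP and 26610 and 28540 there. Ndufa8 and Ndufb8 are named after their values were seen. Atp5g2 had 27970 and 28360 in GFP and 22000 and 23820 there, a log2 change of 2.16 that turned to -0.30 without scaling, and Atp5g1 was at 1.30, or -1.16 without scaling. The second Atp5g2 probe had 11530 and 12120 in GFP and 6592 and 6965 there. Of the 26 genes with positive changes, 9 were positive without scaling. Among these 9 were Cox4i2, Cox8b and Cox8c, which were below background in GFP and on the arrays labelled ST7. The third c-ring gene, Atp5g3, which encodes the same mature protein, had 65080 and 62990 in GFP and 29.2 and 31.1 there, at least 386-fold lower.

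The highest changes were those of Ndufaf3 and Ndufa4l2. Ndufaf3 had 72.2 and 52.5 in GFP and 573 and 581 on the arrays labelled ST7, a log2 change of 5.69 (SE 0.29, limma adjusted p = 7.1e-05). Ndufa4l2 had 20.7 and 17.1 in GFP and 82.8 and 84.7 there, a change of 4.61 (SE 0.34, limma adjusted p = 0.00015). These 2 genes were also the ones called higher without scaling (3.23 and 2.15), but with spike-in scaling neither passed (3.42 and 2.34, limma adjusted p = 0.20 and 0.55) and 0 of the 89 genes were called higher. In complex IV the highest were Cox7a2 (2.79) and Cox6b2 (2.25, or -0.21 without scaling, with 91.0 and 95.8 in GFP and 87.2 and 74.6 there). In complex III the highest was Uqcrc1, a core protein, at 0.79 or, without scaling, -1.67. In complex II it was Sdhc, a membrane anchor, at -1.29 or, with the percentile over all probes, 0.65 (3034 and 2479 in GFP, 206 and 204 there).

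Of the remaining isoform pairs, Ndufa4 changed by -2.50, which shrank to -0.56 and no longer passed with the percentile over all probes (limma adjusted p = 0.061). Cox4i1 was at 0.57 and Cox6a2 at 0.12, and neither passed or kept its sign without scaling (-1.89 and -2.34). Cox8a was called at 1.18, but GFP was saturated and the direction turned without scaling (-1.28). Cox6a1 was at least 532-fold lower, Cox6b1 at least 19.6-fold, Cox7a2l at least 95.4-fold and Cox7b at least 148-fold. Cox7a1 was called lower at -0.94, at least 1.79-fold, and turned to 1.00 with the percentile over all probes.

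**Figure D3:**
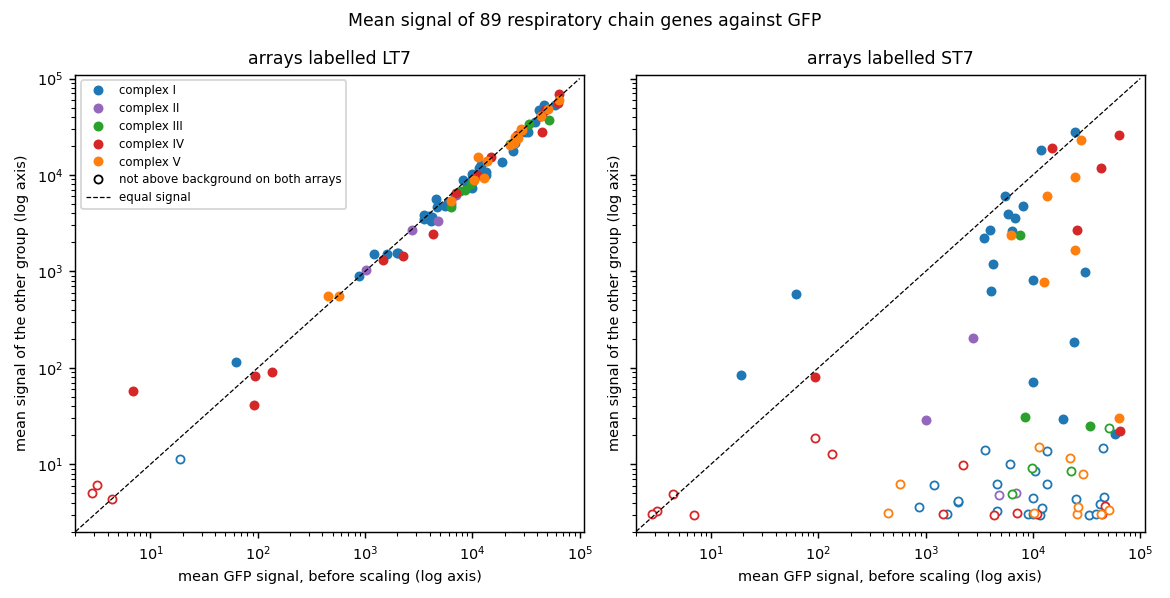
Mean signal before scaling of the 89 genes in LT7 (left) and on the arrays labelled ST7 (right) against the mean in GFP, both axes logarithmic, with a dashed line of equal signal; open circles are genes not detected on both arrays of the plotted group. LT7 follows the line, while on the arrays labelled ST7 52 of the 89 genes are open circles, most of them detected in GFP.

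Probes of 1 gene did not move together on the arrays labelled ST7. Of 23 genes with at least 2 probes well above background in GFP and LT7 (50 probes), the log2 changes of a gene's probes lay a median of 0.14 apart in LT7 and at most 0.58. On the arrays labelled ST7 the fitted changes lay a median of 3.23 apart, but this counts probes at background, whose change follows their GFP signal, and in 10 of the 23 genes no probe was detected there. Over the 5 genes with at least 2 probes detected on all 6 arrays (11 probes, a restriction added after seeing the data), the median was 1.21 and the highest 5.89, against 0.09 and 0.40 in LT7. In 9 of the 23 genes (39.1%) 1 probe was well above background on both of these arrays and another on neither, and in 7 genes the probes changed in opposite directions. Over all 3922 such genes on the array 39.4% were split in this way. Over the 732 genes of the array with at least 2 probes detected throughout, the medians were 1.82 and, in LT7, 0.20. The spread does not depend on scaling, which shifts all probes of an array alike, though the count of opposite directions does.

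Atp5b, the catalytic beta subunit of complex V, is an example. The probe used here had 26440 and 22740 in GFP and 9218 and 10020 on the arrays labelled ST7, a change of 1.11 in which the scaling outweighs a lower signal. Another had 66070 and 63220 in GFP, saturated, and 2.85 and 6.25 there, at background, at least 871-fold lower. The third had 3532 and 3348, then 856 and 786, a change of 0.39. In LT7 the 3 probes were at -0.11, 0.18 (saturated in both groups) and -0.11. Uqcrc1 was at 0.79 on 1 probe, while the other was at background and at least 208-fold lower. Ndufa7 was at 1.16 on 1 probe and at least 265-fold lower on the other, and Ndufab1, the mitochondrial acyl carrier protein, at 1.86 and at least 13.3-fold lower.

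Probes that share most of their bases differed as well. Ndufs6 probes 1, 2 and 3, printed above, changed by 2.58, 0.56 and -1.49 on the arrays labelled ST7 and by -0.14, -0.06 and -0.08 in LT7. Probe 1 had 5526 and 5554 in GFP and 5678 and 6354 there, while probe 3 had 8988 and 8963 in GFP and 638 and 529 there. Ndufa12 probe 1 had 6638 and 7092 in GFP and 3401 and 3759 there, a change of 1.52. Its probe 2, which shares 40 of 60 bases, had 1899 and 2051 in GFP and 15.9 and 19.1 there, a change of -4.37. Another Ndufa12 probe, not printed, had 17810 and 19720 in GFP and 6.27 and 4.23 there, at background, at least 253-fold lower. The pair of Cox7a2 probes shares 48 bases and changed by 2.79 and -7.03, the latter detected on 1 of the 2 arrays, against 0.12 and 0.12 in LT7. Among the 8 pairs of member probes that share at least 30 bases, the median difference was 2.03 on the arrays labelled ST7 and 0.06 in LT7. Over all 224 such pairs of the array these medians were 0.45 and 0.08. Among the 5 member pairs with both probes detected on all 6 arrays they were 2.05 and 0.09, beside 0.37 and 0.08 over 73 pairs of the array. The Ndufs6 probes, paired with each other, are in both sets of member pairs, so the pairs are not independent. They differed by 2.01, 4.07 and 2.05 on the arrays labelled ST7, and these values set both member medians there.

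**Figure D4:**
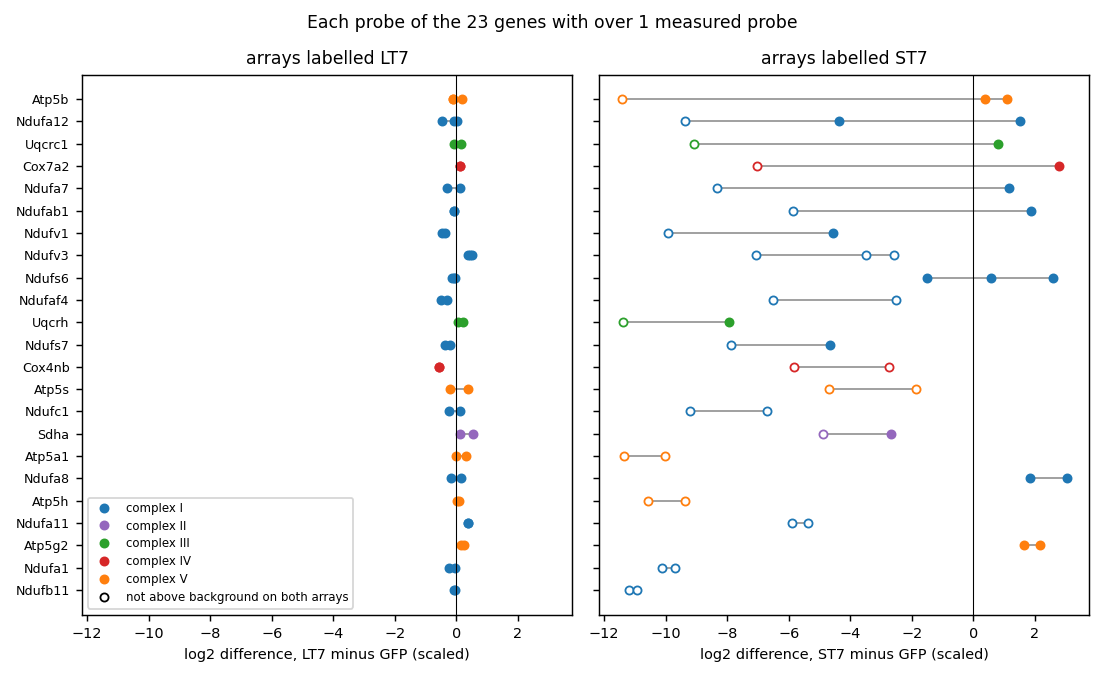
Log2 difference against GFP after scaling for each probe of the 23 genes with at least 2 measured probes, in LT7 (left) and on the arrays labelled ST7 (right), 1 row per gene with a grey line joining its probes; open circles are probes not detected on both arrays of that group. The probes of a gene lie within 0.58 of each other in LT7, while on the arrays labelled ST7 even filled circles of 1 gene lie up to 5.89 apart.

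Detection on the arrays labelled ST7 also varied with a sequence feature of the probe. Of member probes well above background in GFP, 5 of 25 with no reading frame free of stop codons in the printed direction were above background on both arrays labelled ST7. The share was 14 of 44 (31.8%) with 1 such frame, 20 of 38 (52.6%) with 2 and 4 of 6 (66.7%) with 3. Over all NM_ probes the shares were 18.2%, 31.6%, 42.5% and 55.6%. Probes with open frames are more often those inside coding sequence. Median GC content was 45.0% in member probes that were detected and in those that were not, beside 45.0% and 41.7% over all NM_ probes. The part of this feature in the results was not tested.

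Genes that act with the chain were called on these arrays too, where 46.4% of all genes were called higher and 40.4% lower. Of 20 genes for cytochrome c, cytochrome c1 and assembly factors, 4 were called higher and 16 lower on the arrays labelled ST7. Cycs, cytochrome c itself, had 17.2 to 20.2 there and changed by -7.68, while Cyc1, the cytochrome c1 of complex III, changed by 1.23 after scaling, with 13180 and 13160 in GFP and 5560 and 5646 there. Of 16 tricarboxylic acid cycle genes 4 were called higher and 12 lower, and of 17 regulators 6 higher and 9 lower. Of the regulators called higher, Gabpb2 was below background on all 6 arrays. Gabpb1 (75.7 and 81.9 in GFP, 26.1 and 27.95 there) and Pprc1 had lower signals there before scaling. Ppargc1b, Yy1 and Esrra had higher signals there before scaling. Esrra, a nuclear receptor, had 1735 and 1470 in GFP and 3961 and 3990 there. Myc had 5114 and 5406 in GFP and 2.85 and 3.20 there.

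Against LT7 the arrays labelled ST7 gave nearly the same counts, with 24 genes called higher and 62 lower, where over all genes 46.5% were called higher and 40.3% lower. The median log2 change was -6.22. This comparison shares its ST7 arrays with the one above, and is no independent evidence. Atp5c1, at background there, was at least 691-fold lower. Ndufa4l2 had 8.09 and 14.6 in LT7, at background, and 82.8 and 84.7 on the arrays labelled ST7, where the scaling adds to the difference. Cox6a2, called in neither comparison with GFP, was called here at 1.18 after scaling (SE 0.24, limma adjusted p = 0.0068), with LT7 signals of 43.0 and 40.0 against the lower 22.1 and 14.95 there before scaling.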

How the data were processed

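RNA from GFP, LT7 and ST7 cells (2 arrays each) was hybridized with Cy3 to 6 one-colour arrays of 1 slide, read in 2 scans, of which 1 held LT7 replicate 1 alone. The deposited scanner files give a background-subtracted intensity per spot, made by the authors with Agilent Feature Extraction 10.5.1.1. The authors' deposited series matrix gives log2 values after a 75th percentile shift, matched within 0.01 for all but 3 to 11 probes per array. Outlier spots were dropped, repeated spots averaged, log2 taken, and each array's 75th percentile over the 11084 probes detected on all 6 subtracted. The study's percentile, over all probes, had a signal of 16.3 and 17.1 on the ST7 arrays and 317 to 384 on the others. limma was fitted to all 6 arrays with Benjamini-Hochberg adjustment over 61307 probes, and tested on simulated data first. With 2 arrays a group, their number limits precision. Fold limits, under the main scaling only, set the brighter group against a floor per array, namely the least signal of any detected probe, or the dim probe's own where higher. Detected means well above background by the scanner's flag. Named genes were the 2 highest and 2 lowest changes in complexes I, IV and V and the highest and lowest in II and III (eligible if above background on both arrays of 1 group), called genes in LT7, and the isoform sets. Members, lists and rules were chosen with earlier results of these data known. Names follow the array; all 118 accessions were found in RefSeq. Tools were R 4.3.3, limma 3.58.1, Python 3.11.15 and pandas 2.3.3.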

Additional observations from a re-analysis of the deposited data

How the results depend on the processing

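Between LT7 and GFP, 0 genes were called with quantile normalization, spike-in scaling, normexp background correction, GFP and LT7 arrays only, or a replicate block (at an unadjusted p under 0.05, 3, 0, 17, 6 and 7 genes). Leaving out 1 array gave 0 to 1, and the study's fold rule 2 (1 higher, 1 lower), beside 6.22% of all 19523 genes. With spike-in scaling the median was -2.24. Deviations of arrays with the same replicate number had correlations of 0.086 for GFP and LT7 and -0.030 for LT7 and ST7. For GFP and ST7 the correlation was higher, at 0.327. The replicate block left 85 and 86 calls for ST7 against GFP and LT7. Spike-in scaling gave 56 (0 higher, 56 lower) and 52 (1 higher, 51 lower), where the main counts were 23 and 62, and 24 and 62. The ST7 against GFP median was -8.90 without scaling, -4.50 with the percentile over all probes, -5.32 with quantile, -8.71 with spike-in, -3.22 with normexp, -4.52 with the series matrix, -5.88 over every probe, -7.05 with the probe brightest in GFP and -4.76 with 43 genes at their limit. Against LT7 it was -8.60, -4.30, -5.22 (quantile), -3.13 (normexp), -4.31 (matrix) and -7.12 (brightest in GFP), and -6.50 to -5.93 with 1 array left out.

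Signs turned as follows, and the cause was not tested beyond the shift each scaling makes. In LT7 spike-in scaling moved the median over all probes to -2.05. With it, Atp5e was at -1.68, Atp5g1 -2.08, Atp5g2 -2.05, Atp5s -1.83, Cox7a2 -2.08, Ndufa11 -1.81, Ndufaf3 -1.24, Sdha -2.08 and Uqcrh -2.14. With quantile, Cox4i1 was at 0.19 and Ndufa4 at 0.061, and with normexp Cox6b2 at 0.0072 and Cox7b at 0.018. Uqcrh was at -0.022 without scaling and -0.019 without saturated spots, and the second Atp5s probe at -0.21. In ST7 without scaling and with spike-in scaling, Atp5g1 was at -1.16 and -0.96, Atp5g2 -0.30 and -0.11, Cox4i1 -1.89 and -1.70, Cox6a2 -2.34 and -2.15, Cox6b2 -0.21 and -0.020, Cox8a -1.28 and -1.09, and Uqcrc1 -1.67 and -1.48. Cox6a2 was at -0.29 without saturated spots. Cox7a1 was at 1.00 with the percentile over all probes, 0.61 with quantile, 0.92 with normexp and 0.98 with the matrix, and Sdhc at 0.65, 0.81 (quantile) and 0.64 (matrix). Ndufa4 kept its sign but did not pass with that percentile (-0.56) or the matrix (-0.58). Second probes of Cox7a2 and Uqcrc1 were at -7.03 and, at background, -9.07. With 1 array left out, LT7 changes that crossed 0 were Atp5g2 (-0.0021 to 0.32), Atp5g3 (-0.17 to 0.12), Atp5k (-0.38 to 0.083), Cox4i1 (-0.22 to 0.19), Cox6b1 (-0.14 to 0.046), Cox6b2 (-0.26 to 0.025), Cox7a2 (-0.035 to 0.28), Cox7a2l (-0.14 to 0.035), Cox7b (-0.099 to 0.019), Ndufa4 (-0.20 to 0.065) and Uqcrh (-0.053 to 0.18), and in ST7 Cox6a2 (-0.15 to 0.38).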
